A study of Caenorhabditis elegans with 6 samples.

Results

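The DEG/ENaC and TRP channel genes are 2 families of cation channel subunits, and they were followed here in the RNA of neural cells of *C. elegans*. They were chosen by gene name alone, from the *del*, *delm*, *asic*, *acd*, *egas*, *degt*, *trp*, *trpa*, *ocr* and *gtl* genes with *deg-1*, *unc-8*, *unc-105*, *flr-1*, *gon-2*, *pkd-2* and *cup-5*. This gave 41 of the 19793 genes measured, 28 DEG/ENaC and 13 TRP genes. Family shares, sums, medians and ranks below are over these genes only. Subunit genes of the touch channel and further TRP genes are in a separate list, given last. The rule by name uses no expression value, although earlier results of these data were known when it was set. The 2 genotypes were *adr-2 (-)*;ADR-1 dsRBD1 mutant animals (strain HAH57) and *adr-2 (-)* animals (strain BB78), with 3 biological replicates of each. Both carry the *ok735* deletion of *adr-2*, which encodes the RNA editing enzyme, together with RFP and GFP reporters under the neuronal *rab3* promoter and an *unc-119* rescue. The dsRBD1 mutant also carries FLAG-tagged ADR-1 with lysines replaced in the first double-stranded RNA binding domain, and the tag is not listed for BB78. Cells came from animals of the first larval stage (L1), and each genotype is 1 strain. The comparison asks which transcripts differ when ADR-1 loses RNA binding in neural cells that lack *adr-2*.

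DEG/ENaC proteins assemble as trimers into sodium channels, some opened by mechanical force and some gated by protons or peptides, and in *C. elegans* they occur in neurons, glia, muscle and intestine. TRP proteins assemble as tetramers into cation channels that respond to touch, temperature, chemicals or lipid signals, and some carry magnesium or calcium across the membranes of the intestine, the excretory cell or the lysosome. A gain-of-function degenerin can kill the neuron that expresses it, which gave the family its name. Both families are known in the worm for touch, nose touch, proprioception and chemical sensing.

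Values are read counts divided by 1 size factor per library, called normalized values here, and reads were recovered from them. The dsRBD1 mutant libraries held 12219263 to 18382009 reads on genes, against 5686686 to 14658470 in the *adr-2 (-)* libraries. *adr-2 (-)* replicate 3 stood apart. In it 52.6% of the reads fell on the ribosomal RNA gene *rrn-3.1* (12.6% to 21.3% in the other 5 libraries), only 2534884 reads were left outside the *rrn* genes, and 1 read was worth a normalized value of 3.25 (0.602 to 0.930 in the others). Its mean correlation with the other libraries was 0.602, against 0.739 to 0.803 for the rest. Differences between the genotypes that rest on it are therefore given with and without it, whereas mean levels per kilobase and their ranks include it. On the *adr-2* gene itself lay 2, 30 and 4 reads for dsRBD1 mutant cells, against 95, 79 and 44 for *adr-2 (-)* cells. These did not overlap although both genotypes carry the deletion, counts per gene do not show whether the reads lie in the deleted part, and the cause was not tested. The summed level of 18 neuron markers was 3668 to 4447 RPM (reads per 1000000 reads outside the *rrn* genes) in dsRBD1 mutant cells and 3841 to 4127 in *adr-2 (-)* cells. All 18 had reads in at least 1 library. *unc-17* was low, with 1, 0 and 12 reads in dsRBD1 mutant cells, against 24, 10 and 45 in *adr-2 (-)* cells. *cat-2* had 0 reads in *adr-2 (-)* replicate 3. The neuronal label stands beside a high summed level of 11 muscle markers. These summed to 39170 to 39948 RPM in dsRBD1 mutant cells and 30232 to 44016 in *adr-2 (-)* cells. The 11 intestine markers summed to 7411 to 10609 RPM in dsRBD1 mutant cells and 7894 to 10184 in *adr-2 (-)* cells. For 11 hypodermis markers the sums were 187 to 1371 RPM in dsRBD1 mutant cells and 243 to 786 in *adr-2 (-)* cells. A list of 20 germline and early embryo genes was lower in dsRBD1 mutant cells (168 to 224 RPM) than in *adr-2 (-)* cells (325 to 1578), with no overlap.

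Most of the channel genes were present at low levels, and a single degenerin stood far above the others. Levels of different genes are compared as the normalized value per kilobase of exon, averaged over the 6 libraries. Of the 41 genes, 36 had a mean normalized value of at least 10 and entered the fit (24 DEG/ENaC and 12 TRP), and 21 had a read in all 6 libraries. Only 4 of the 36 lay above the median level per kilobase of the 13705 genes in the fit, and 19 lay below its 25th percentile. These 4 were *del-6*, *trp-2*, *gtl-1* and *gon-2*. The median level per kilobase of the genes in the fit was 37.8 for DEG/ENaC genes and 72.4 for TRP genes.

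**Figure D1:**
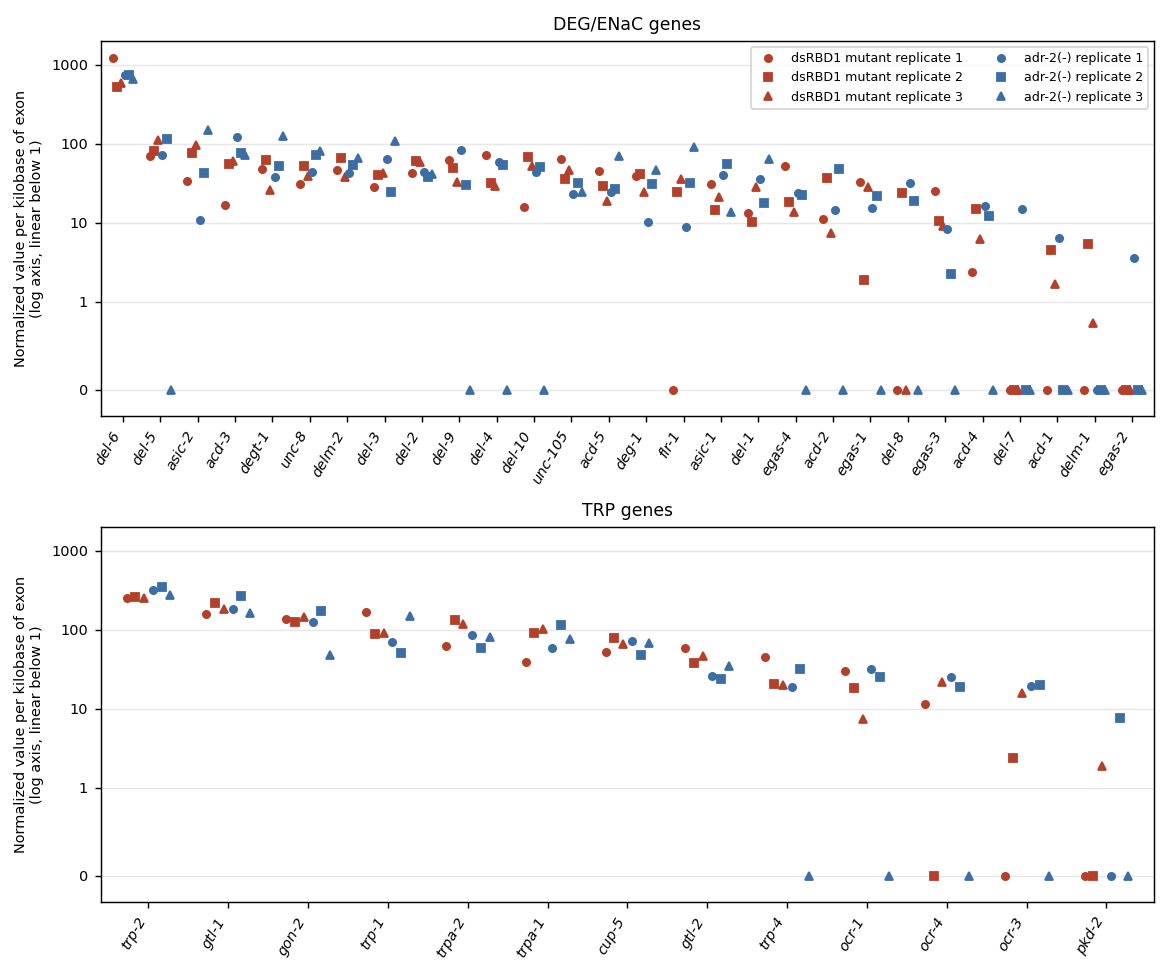
Normalized value per kilobase of exon (vertical log axis, linear below 1) for the 28 DEG/ENaC genes (top) and the 13 TRP genes (bottom), ordered by their mean, with 1 point for each of the 3 dsRBD1 mutant and the 3 *adr-2 (-)* libraries. *del-6* lies at 514 to 1223 per kilobase in every library, above every library of *del-5* (0 to 116), and many points at 0 belong to *adr-2 (-)* replicate 3.

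*del-6*, a degenerin-like subunit gene on chromosome V (10572914 to 10575454, plus strand, WBcel235), had the highest level of its family at 742 per kilobase, which is the 89.3th percentile of the genes in the fit. It was 9.92 times the level of *del-5*, the next in order, whose mean includes a 0 in *adr-2 (-)* replicate 3. The normalized values of *del-6* were 2789, 1171 and 1330 in dsRBD1 mutant cells, against 1664, 1685 and 1509 in *adr-2 (-)* cells. The dsRBD1 mutant libraries thus held both the highest value and the lowest. *del-6* took 36.5% to 60.4% of the reads of the DEG/ENaC genes chosen here in dsRBD1 mutant libraries, and 42.2% to 46.6% in *adr-2 (-)* libraries. The nearest other family member, *degt-1*, which encodes a degenerin required for harsh touch responses in the PVD neurons, ends 27157 bases upstream of it and had a level of only 58.6 per kilobase.

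The genes of the UNC-8 group encode subunits of neuronal degenerin channels. *unc-8*, known for motor neurons and coordinated movement, had normalized values of 80.9, 136 and 104.5 in dsRBD1 mutant cells, against 114, 189 and 215 in *adr-2 (-)* cells. *del-1*, whose product works with UNC-8, had 32.5, 24.7 and 68.7 in dsRBD1 mutant cells, against 86.5, 42.6 and 156 in *adr-2 (-)* cells. In both genes the ranges of the genotypes overlapped, and *adr-2 (-)* replicate 3 held the highest value. *deg-1*, the gene whose dominant allele causes neuron degeneration, had 115.3, 122.8 and 71.6 in dsRBD1 mutant cells, against 30.6, 90.3 and 137 in *adr-2 (-)* cells. For *degt-1* the values were 126, 165 and 67.3 in dsRBD1 mutant cells and 100, 136 and 332 in *adr-2 (-)* cells. *adr-2 (-)* replicate 3 was again the highest library for both. *del-4* went the other way in that library, with 115.3, 51.2 and 46.5 in dsRBD1 mutant cells, against 94.6, 87.3 and 0 in *adr-2 (-)* cells.

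The remaining *del* genes also encode degenerin-like subunits. *del-2* was the steadiest of them, with a coefficient of variation of 19.9% over the 6 libraries and normalized values of 85.5, 120 and 118 in dsRBD1 mutant cells, against 88.3, 75.6 and 84.6 in *adr-2 (-)* cells. *del-3* had 45.6, 65.6 and 68.7 in dsRBD1 mutant cells, against 105.4, 39.6 and 176 in *adr-2 (-)* cells. The 2 highest values of *del-2* were dsRBD1 mutant values, whereas the *adr-2 (-)* libraries of *del-3* held both the highest and the lowest value. *del-9* had 112, 88.5 and 58.7 in dsRBD1 mutant cells, against 146, 52.8 and 0 in *adr-2 (-)* cells. *del-10* had 53.9, 227 and 176 in dsRBD1 mutant cells, against 148, 169 and 0 in *adr-2 (-)* cells. *del-8* was read in 3 libraries, with 0, 46.9 and 0 in dsRBD1 mutant cells, against 61.3, 36.7 and 0 in *adr-2 (-)* cells. For *del-9* and *del-10* the other 5 libraries overlapped, and the single 0 was that of *adr-2 (-)* replicate 3. *del-7* had 31 reads in *adr-2 (-)* replicate 1 and no read in the other 5 libraries, and it did not enter the fit.

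The *asic* and *acd* genes are named for their likeness to mammalian acid-sensing ion channels. *asic-2* had the third highest mean level of the family over all 6 libraries, at 67.8 per kilobase, with *acd-3* next at 66.6. That order rests on *adr-2 (-)* replicate 3, where *asic-2* had 148 per kilobase, against 10.6 to 95.8 in the other libraries. The normalized values of *asic-2* were 59.5, 135 and 170 in dsRBD1 mutant cells, against 18.9, 75.6 and 263 in *adr-2 (-)* cells. *asic-1*, which acts in dopaminergic neurons, had 80.0, 37.3 and 54.4 in dsRBD1 mutant cells, against 104.5, 143 and 35.8 in *adr-2 (-)* cells. In both, the *adr-2 (-)* libraries held the highest and the lowest value. *acd-5*, known from the intestine, had 109, 70.4 and 45.1 in dsRBD1 mutant cells, against 57.7, 63.1 and 166 in *adr-2 (-)* cells. The low genes of the group were *acd-2* (17.2 to 85.5 in dsRBD1 mutant cells, 0 to 112 in *adr-2 (-)* cells) and *acd-4* (4.65 to 28.9 in dsRBD1 mutant cells, 0 to 31.5 in *adr-2 (-)* cells). For *acd-1*, known from amphid sheath glia, dsRBD1 mutant cells gave 0, 16 and 5 reads, against 15, 0 and 0 in *adr-2 (-)* cells.

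Among the glial subunits, *delm-2* was measured well and *delm-1* hardly at all. Both are known for glia beside the nose touch neurons. *delm-2* had normalized values of 83.7, 122 and 69.4 in dsRBD1 mutant cells, against 78.4, 98.3 and 120 in *adr-2 (-)* cells, while for *delm-1* dsRBD1 mutant cells gave 0, 17 and 2 reads and *adr-2 (-)* cells none. The summed level of 9 other glia markers was 260 to 294 RPM in dsRBD1 mutant cells and 120 to 310 in *adr-2 (-)* cells. The *egas* genes encode degenerins with EGF-like repeats. *egas-4* had 143, 50.6 and 37.9 in dsRBD1 mutant cells, against 65.8, 60.9 and 0 in *adr-2 (-)* cells, and *egas-1* had 93.9, 5.42 and 79.4 in dsRBD1 mutant cells, against 44.2, 62.4 and 0 in *adr-2 (-)* cells. *egas-2* had 11 reads, all in *adr-2 (-)* replicate 1. *flr-1*, an intestinal subunit of the defecation rhythm, had 0, 47.5 and 69.4 in dsRBD1 mutant cells, against 17.1, 63.1 and 176 in *adr-2 (-)* cells, and its 0 came from dsRBD1 mutant replicate 1.

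On average over the libraries, the TRP genes chosen here were led by *trp-2*, *gtl-1* and *gon-2*. Together these took 60.9% to 66.0% of the reads of the chosen TRP genes in dsRBD1 mutant libraries, and 60.9% to 73.0% in *adr-2 (-)* libraries. Their levels were 285, 195 and 126 per kilobase. Their order among themselves held within each of the 6 libraries. The ranges over libraries overlapped (253 to 350 per kilobase for *trp-2*, 160 to 264 for *gtl-1* and 48.6 to 171 for *gon-2*). Other TRP genes passed *gtl-1* or *gon-2* in single libraries. In dsRBD1 mutant replicate 1, *trp-1* (168) lay above *gtl-1* (160) and *gon-2* (137). In replicate 2, *trpa-2* (131) lay above *gon-2* (127). In *adr-2 (-)* replicate 3, *trp-1* (148) and other TRP genes lay above *gon-2* (48.6). *trp-1*, which with *trp-2* belongs to the canonical TRPC group, had normalized values of 539, 283 and 291 in dsRBD1 mutant cells, against 223, 163 and 475 in *adr-2 (-)* cells. *adr-2 (-)* replicate 3 was the only library of its genotype inside the range of the dsRBD1 mutant libraries.

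*trpa-1*, a channel of cold and mechanical sensing, had normalized values of 149, 340 and 384 in dsRBD1 mutant cells, against 221, 428 and 283 in *adr-2 (-)* cells. Its paralog *trpa-2* had 103, 215 and 193 in dsRBD1 mutant cells, against 140, 95.4 and 133 in *adr-2 (-)* cells. Both had their lowest dsRBD1 mutant value in replicate 1. *cup-5*, the mucolipin of the lysosome, had 143, 213 and 177 in dsRBD1 mutant cells, against 197, 130 and 185 in *adr-2 (-)* cells, with a coefficient of variation of 18.3% over the 6 libraries. *trp-4*, the mechanosensory TRPN channel of dopaminergic and proprioceptive neurons, had 273, 123 and 122 in dsRBD1 mutant cells, against 113, 194 and 0 in *adr-2 (-)* cells.

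The TRPV genes, which encode relatives of the mammalian capsaicin receptor and are known from small sets of sensory and accessory cells, are represented here by 3 *ocr* genes, whose levels of 9.66 to 18.8 per kilobase were the lowest among the 12 TRP genes chosen here and in the fit. *ocr-1* had normalized values of 80.0, 49.4 and 20.0 in dsRBD1 mutant cells, against 86.5, 67.5 and 0 in *adr-2 (-)* cells. *ocr-3* had 0, 6.02 and 40.8 in dsRBD1 mutant cells, against 49.6, 50.6 and 0 in *adr-2 (-)* cells, and *ocr-4* had 27.9, 0 and 53.0 in dsRBD1 mutant cells, against 60.4, 44.8 and 0 in *adr-2 (-)* cells. All 3 were listed at 0 in *adr-2 (-)* replicate 3. *pkd-2*, the polycystin known from male-specific sensory neurons, gave 0, 0 and 6 reads in dsRBD1 mutant cells, against 0, 24 and 0 in *adr-2 (-)* cells, and did not enter the fit.

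Family members that lie close together had unequal levels. On chromosome I, *acd-2*, *acd-1* and *delm-2* lie on the plus strand in that order with gaps of 5367 and 1239 bases, and their levels were 19.7, 2.10 and 52.2 per kilobase. On chromosome V, *egas-1* and *egas-2* are 1953 bases apart with levels of 16.7 and 0.599 per kilobase. *egas-3* lies 3955 bases before *egas-1* on the opposite strand, with 1 protein-coding gene between them, and had 9.26 per kilobase. On chromosome IV, *gtl-1* and *gtl-2* are 13915 bases apart on opposite strands, with 5 protein-coding genes between them, and had 195 and 38.1 per kilobase. Of all 41 genes, 11 are on chromosome I, 2 on II, 3 on III, 10 on IV, 7 on V and 8 on X. No single other gene covered more than 7.68% of the exon length of a channel gene (*del-8*, by an RNA gene on the opposite strand).

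A large share of the zeros fell in 1 library. In *adr-2 (-)* replicate 3, 14 of the 36 genes in the fit (38.9%) were listed at 0, against 25.2% of all 13705 genes. In the other 5 libraries 0 to 3 of the 36 genes were at 0, against 4.47% to 16.1% of all genes. The 14 genes were *del-4*, *del-5*, *del-8*, *del-9*, *del-10*, *acd-2*, *acd-4*, *egas-1*, *egas-3*, *egas-4*, *trp-4*, *ocr-1*, *ocr-3* and *ocr-4*. From the other *adr-2 (-)* libraries and its size factor, these 14 would have had 4.76 to 48.7 reads there, with a median of 20.9. A count of 0 in that library allows a normalized value of up to 9.76 (3 reads), against 1.81 to 2.79 in the others, and such limits cover counting error only.

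**Figure D2:**
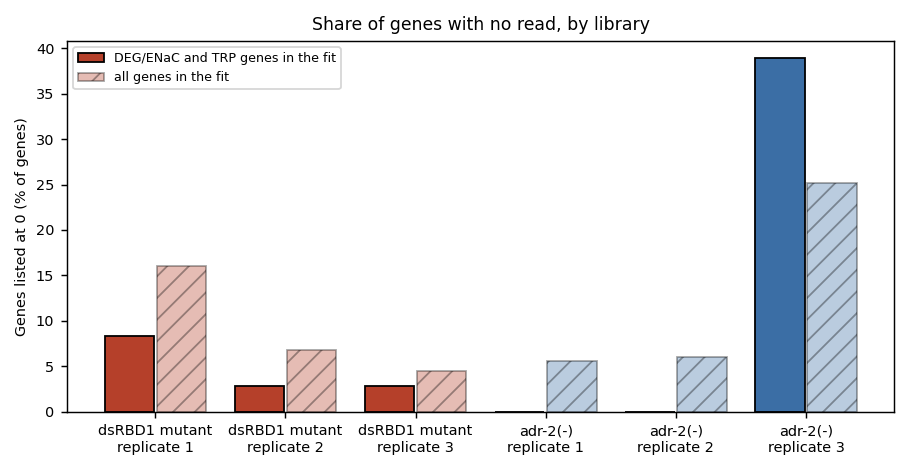
Share of genes listed at 0 (vertical axis, percent of genes) in each library, for the 36 DEG/ENaC and TRP genes in the fit (solid bars) and for all 13705 genes in the fit (hatched bars). *adr-2 (-)* replicate 3 is the only library in which the channel genes exceed all genes, at 38.9% against 25.2%.

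Between dsRBD1 mutant and *adr-2 (-)* cells, no channel gene passed the test. With limma, 0 of the 36 genes in the fit were called (adjusted p under 0.05 with a log2 fold change beyond 0.5 either way), beside 0 of 13705 genes overall (0%). At an unadjusted p under 0.05 there were 0 of the 36 with limma, against 6.36% of all genes (872 genes). The quasi-likelihood test of edgeR called 0 genes, and at an unadjusted p under 0.05 it also gave 0 of the 36, against 6.55% of all genes. DESeq2 called 0 of the 36, against 2.29% of the genes to which it gave an adjusted p (317 of 13844), and had 0 of the 36 at an unadjusted p under 0.05, against 11% of all genes. The smallest DESeq2 adjusted p among the channel genes was 0.692, for *unc-105*. Summed over a family, DEG/ENaC genes had 483, 340 and 316 RPM in dsRBD1 mutant cells, against 408, 403 and 434 in *adr-2 (-)* cells. Summed TRP genes had 422, 435 and 417 RPM in dsRBD1 mutant cells, against 447, 516 and 383 in *adr-2 (-)* cells. Both sums overlapped between the genotypes.

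How small a difference could be seen depended on the gene. For the 21 genes with a read in every library the standard error of the log2 fold change was 0.25 to 1.14, and for the 15 with a 0 it was 1.73 to 2.41. Log2 fold changes (dsRBD1 mutant minus *adr-2 (-)*, on the log2 of the value + 1 scale) were -1.17 to 0.83 in the first set and -1.97 to 2.83 in the second. Median log2 fold changes were 0.41 over the 24 DEG/ENaC genes (14 above 0) and 0.24 over the 12 TRP genes (7 above 0), against 0.09 over all genes. Without *adr-2 (-)* replicate 3 the medians were -0.11 for DEG/ENaC genes, -0.15 for TRP genes and -0.06 for all genes, and without *adr-2 (-)* replicate 1 the DEG/ENaC median was also below 0, at -0.06. Of the 14 genes listed at 0 in *adr-2 (-)* replicate 3, 11 had a log2 fold change above 0 with it and 3 without it. The median of these 14 was 1.53 with that library and -0.51 without it. Over all 3457 genes listed at 0 there, the median was 1.60 with it and -0.25 without it.

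**Figure D3:**
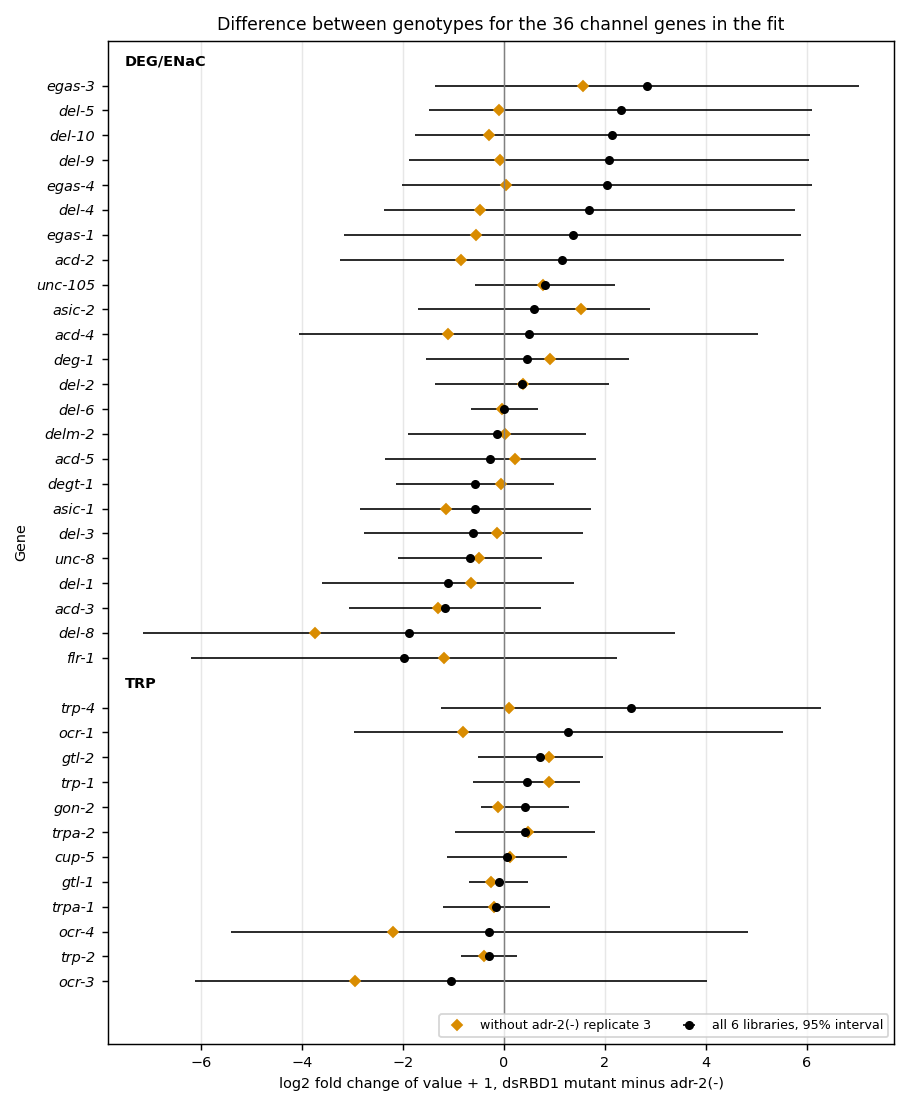
Log2 fold change of value + 1, dsRBD1 mutant minus *adr-2 (-)* (horizontal axis), for the 24 DEG/ENaC genes (upper block) and the 12 TRP genes (lower block) in the limma fit. Black circles with bars are estimates and 95% intervals from all 6 libraries and orange diamonds are estimates without *adr-2 (-)* replicate 3; every interval includes 0, and 12 of the 36 estimates change sign without that library.

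In 5 of the 36 genes (13.9%) the 3 dsRBD1 mutant values all lay above or all below the 3 *adr-2 (-)* values, against 13.7% of all genes, so the share is near that background. The 3 that lay above were *unc-105*, *egas-3* and *gtl-2* (6.8% of all genes lay above), and the 2 below were *acd-3* and *trp-2* (6.92% of all genes lay below). With 3 libraries against 3, the smallest p an exact two-sided permutation test allows is 0.1. Each of the 5 had it by construction, since values without overlap always give it. In bulk RNA, fewer cells of a type and less RNA per cell cannot be told apart. The germline list given above also separates the genotypes, and its part in these values was not tested.

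*unc-105*, a degenerin of body wall muscle known for a hypercontraction phenotype (chromosome II, 8116459 to 8122914), had normalized values of 245, 136 and 177 in dsRBD1 mutant cells, against 90.1, 123.3 and 94.3 in *adr-2 (-)* cells. The closest values were 136 in dsRBD1 mutant replicate 2 and 123.3 in *adr-2 (-)* replicate 2. Means were 186 ± 54.7 in dsRBD1 mutant cells and 103 ± 18.1 in *adr-2 (-)* cells (SD, n = 3 each). The log2 fold change of 0.83 (SE 0.63, 95% interval -0.56 to 2.21) had an adjusted p of 0.750 in limma. The muscle marker sums given above overlapped between the genotypes. Taken singly, 9 of the 11 muscle markers had a log2 fold change above 0 and 2 below, with a median of 0.21 (54.5% of all genes lay above 0). Limma gave 1 of the 11 an unadjusted p under 0.05, higher in dsRBD1 mutant cells, against 6.36% of all genes. A part of muscle RNA in the *unc-105* values was not tested.

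*gtl-2*, the TRPM channel of the excretory cell (chromosome IV, 11273451 to 11281992), had normalized values of 260, 166 and 204 in dsRBD1 mutant cells, against 116, 106 and 156 in *adr-2 (-)* cells. Means were 210 ± 47.4 in dsRBD1 mutant cells and 126 ± 26.3 in *adr-2 (-)* cells (SD, n = 3 each). The lowest dsRBD1 mutant library and the highest *adr-2 (-)* library differed by less than either SD. Its log2 fold change was 0.73 (SE 0.57, 95% interval -0.51 to 1.96, limma adjusted p = 0.750). Its paralogs, the magnesium channels *gtl-1* and *gon-2* of the intestine, did not separate. *gtl-1* had 844, 1142 and 980 in dsRBD1 mutant cells, against 970, 1395 and 855 in *adr-2 (-)* cells, with a log2 fold change of -0.10 (SE 0.27, 95% interval -0.68 to 0.49, limma adjusted p = 0.926, exact permutation p = 0.7). *gon-2* had 932, 868 and 1003 in dsRBD1 mutant cells, against 863, 1167 and 332 in *adr-2 (-)* cells, with a log2 fold change of 0.43 (SE 0.40, 95% interval -0.45 to 1.30, limma adjusted p = 0.769, exact permutation p = 0.7). The value of 332 was that of *adr-2 (-)* replicate 3, and without it the *gon-2* log2 fold change was -0.11.

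*egas-3*, an EGF-repeat degenerin (chromosome V, 18628655 to 18636348), gave 81, 52 and 38 reads in dsRBD1 mutant cells, against 27, 9 and 0 reads in *adr-2 (-)* cells. The normalized values were 75.3, 31.3 and 27.2 in dsRBD1 mutant cells, against 24.3, 6.61 and 0 in *adr-2 (-)* cells, so the separation was by 27.2 over 24.3. Its log2 fold change of 2.83 (SE 1.92, 95% interval -1.36 to 7.03, limma adjusted p = 0.741) was 1.57 without *adr-2 (-)* replicate 3, where it was listed at 0.

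*acd-3*, a subunit known from the intestine together with FLR-1 and DEL-5 (chromosome X, 14849275 to 14852631), was the degenerin that lay below. It had normalized values of 26.96, 87.9 and 97.3 in dsRBD1 mutant cells, against 196, 121 and 114 in *adr-2 (-)* cells. Means were 70.7 ± 38.2 in dsRBD1 mutant cells and 143 ± 45.2 in *adr-2 (-)* cells (SD, n = 3 each). On the log2 scale they differed by -1.17 (SE 0.87, 95% interval -3.07 to 0.74, limma adjusted p = 0.744). The gene shares 4.98% of its exon length with a gene on the opposite strand. *del-5* did not separate, with 113, 132 and 182 in dsRBD1 mutant cells, against 117, 190 and 0 in *adr-2 (-)* cells. The log2 fold change of *del-5* was 2.32 (SE 1.74, 95% interval -1.48 to 6.11, limma adjusted p = 0.744, exact permutation p = 0.7) with all libraries and -0.09 without *adr-2 (-)* replicate 3. The intestine marker sums given above overlapped between the genotypes.

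*trp-2* (chromosome III, 991881 to 1001931), the most abundant TRP gene per kilobase, had the smallest spread of all 36 genes, with a coefficient of variation of 14.4% over the 6 libraries. Its normalized values were 681, 696 and 688 in dsRBD1 mutant cells, against 869, 945 and 735 in *adr-2 (-)* cells. Means were 689 ± 7.47 in dsRBD1 mutant cells and 850 ± 106 in *adr-2 (-)* cells (SD, n = 3 each). The log2 fold change of *trp-2* was -0.29 (SE 0.25, 95% interval -0.85 to 0.26, limma adjusted p = 0.762). Without *adr-2 (-)* replicate 3 it was -0.40, with a limma unadjusted p of 0.0233 and an adjusted p of 0.813, and *trp-2* was then the only channel gene with an unadjusted p under 0.05 (1 of 36, or 2.78%, against 6.03% of all genes).

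For *del-6* the log2 fold change was 0.01 (SE 0.31, 95% interval -0.65 to 0.68, limma adjusted p = 0.994, exact permutation p = 1), and means were 1764 ± 892 in dsRBD1 mutant cells and 1620 ± 96.1 in *adr-2 (-)* cells (SD, n = 3 each). The wider spread of the dsRBD1 mutant cells came from replicate 1, without which the log2 fold change was -0.37. For *asic-2* it was 0.60 (SE 1.05, 95% interval -1.70 to 2.90, limma adjusted p = 0.870, exact permutation p = 1), and it was -0.34 without *adr-2 (-)* replicate 1, the lowest library of that gene.

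**Figure D4:**
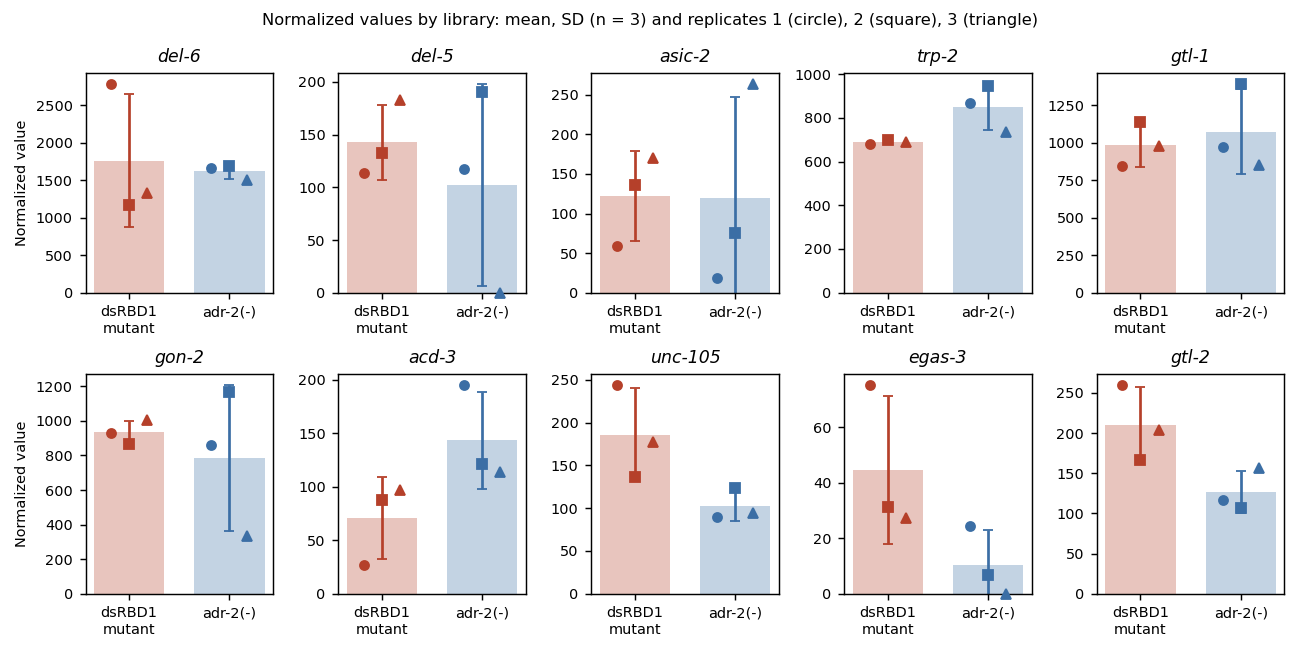
Normalized values (vertical axes from 0) in dsRBD1 mutant cells (left) and *adr-2 (-)* cells (right) for *del-6*, *del-5*, *asic-2*, *trp-2*, *gtl-1* and *gon-2*, the 3 highest genes per kilobase of each family, and for *acd-3*, *unc-105*, *egas-3* and *gtl-2*, which with *trp-2* did not overlap between the genotypes. Bars are means, error bars SD (n = 3; lower ends under 0 are not drawn) and points the replicates; in *egas-3* the lowest dsRBD1 mutant value is 27.2 and the highest *adr-2 (-)* value 24.3.

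The other genes listed with these channels are given by their counts. Of a list of 20 partners and further mechanosensory or sensory channels, among them subunits of the touch channel, stomatin-like proteins and other TRP and TMC genes, 19 were measured and 15 entered the fit. Of the 15, limma called 0 (0% of all genes), DESeq2 called 0 (2.29% of the genes with an adjusted p) and 0 had an unadjusted limma p under 0.05 (6.36% of all genes), so nothing about the list is read from these counts. Their median log2 fold change was 0.06, with 8 above 0 and 7 below. Their summed level was 1705 to 2080 RPM in dsRBD1 mutant cells and 1800 to 1889 in *adr-2 (-)* cells.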

How the data were processed

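RNA of neural cells isolated from L1 animals was sequenced in 6 libraries, grouped by the genotype in the sample labels. Per the study's methods, poly(A) RNA was read as 75 bp single-end stranded reads, uniquely aligned to WS275 with STAR 2.7.8a (submitters' processing notes), counted per gene with featureCounts and normalized with DESeq2. The strand setting of the counting is not given in the sources used here. The deposited values are a signal per gene, the read count divided by 1 size factor per library. Divided by the value of 1 read, 100% of the values came out whole within 0.01 reads, so reads were recovered. The log2 fold changes, p-values and adjusted p-values that the authors deposited hold the study's own comparison and were not used. 

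The channel genes, gene lists and tests were chosen with earlier results of these data known. Values + 1 (pseudocount) were taken to log2 and tested with limma 3.58.1 (mean-variance trend, Benjamini-Hochberg over the 13705 genes whose mean value was 10 or more) in R 4.3.3, and genes were called at an adjusted p under 0.05 with a log2 fold change beyond 0.5 either way. edgeR 4.0.16 and DESeq2 1.42.0 were run on recovered reads as alternatives, beside other pseudocounts, filters, thresholds and scalings, the replicate number as a block, and each library left out. The limma, edgeR and DESeq2 calls were also tried on simulated counts, which did not cover the other steps. Single genes were tested with exact two-sided permutation tests (scipy 1.17.1). Replicates are biological by the labels, and p-values measure the spread between them. Every channel gene is named, and full statistics are given for genes with an unadjusted limma p under 0.05, no overlap between genotypes, or a place among the 3 highest per kilobase of a family. Exon lengths and coordinates are from Ensembl release 115 (WBcel235, the assembly of WS275), in which all 41 genes were found. Some genes, *adr-1* among them, were not analysed here.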

Additional observations from a re-analysis of the deposited data

How the results depend on the processing

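The count of channel genes called was 0 under every alternative run. All genes called numbered 0 with limma, 3 with no filter on low values, 317 with DESeq2, 120 with DESeq2 without *adr-2 (-)* replicate 3 (chosen after seeing the data), and 0 to 11 with each library left out (11 without *adr-2 (-)* replicate 2). With the replicate block limma called 21 genes and no channel gene. Deviations from the genotype mean correlated at -0.09, 0.04 and -0.06 between libraries of the same replicate number, and at -0.04 to 0.15 between different numbers. These values do not show pairing by number, but they are too few to exclude it. Channel genes with an unadjusted p under 0.05 numbered 0 to 1 with each library left out (*trp-2*, without *adr-2 (-)* replicate 3). Channel genes without overlap numbered 5, 2 with library total scaling, and 6 to 9 with each library left out (9 without dsRBD1 mutant replicate 1 or *adr-2 (-)* replicate 2, 8 without *adr-2 (-)* replicate 1 or 3), since fewer libraries overlap less often by construction. There 16.7% to 25% of the channel genes and 20.2% to 29.6% of all genes did not overlap. The DEG/ENaC median of 0.41 was -0.27 with at least 10 reads in every library, 0.0122 with edgeR, -0.0781 with DESeq2 and -0.11 to 0.46 with each library left out (-0.11 without *adr-2 (-)* replicate 3, -0.06 without its replicate 1, 0.27 without dsRBD1 mutant replicate 2). The TRP median of 0.24 was 0.0623 with no filter, 0.38 with library total scaling (which moved the median of all genes to 0.21), 0.00904 with edgeR, -0.0614 with DESeq2 and -0.15 to 0.43 with each library left out (-0.15 without *adr-2 (-)* replicate 3, 0.43 without its replicate 1). The cause of these changes was not tested. Among single genes, *gtl-1* changed sign with library total scaling (0.0373). With a library left out, log2 fold changes crossed 0 for *gtl-1* (-0.25 to 0.11), *del-6* (-0.37 to 0.25), *del-5* (-0.092 to 3.70), *asic-2* (-0.34 to 1.52) and *gon-2* (-0.11 to 0.80), and in all for 19 of the 36 genes. They kept their sign for *unc-105* (0.61 to 1.03), *egas-3* (1.57 to 3.90), *gtl-2* (0.56 to 0.89), *acd-3* (-1.49 to -0.58) and *trp-2* (-0.40 to -0.21). These are the 5 genes without overlap, so their sign could not change with a library left out, and this says nothing more about them. The ratio of *del-6* to *del-5* per kilobase was 9.92 and became 10.2 with totals outside *rrn* genes. Both ratios include *adr-2 (-)* replicate 3, where *del-5* was listed at 0. In *adr-2 (-)* replicate 3, 3 reads stand for a value of 9.76, a limit that covers counting error only. From the other *adr-2 (-)* libraries, 34 channel genes would have had at least 10 reads there. Of these, 12 were at 0 (35.3%, against 18.3% of all such genes), and the cause was not tested.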
